A study of Mus musculus with 4 samples.

Results

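The data described here are those of Numb, its paralog Numbl and the core genes of Notch signalling in the embryonic mouse cortex with and without Qk. The members were 10 genes picked by name: the inhibitors Numb and Numbl, the receptors Notch1, Notch2 and Notch3, the ligands Dll1, Dll3 and Jag1, and the target genes Hes1 and Hes5. All 10 were found among the 23038 genes in the tables. Of the 38240 annotated alternative splicing events, 5 belonged to a member. The mRNA of 4 mouse cortices of embryonic stage E14.5 was sequenced, 2 control and 2 Qk cKO. The controls were Qk fl/fl embryos, which carry the floxed Qk alleles without Cre and are labelled WT. The Qk cKO embryos were Qk fl/fl with a Nestin-Cre transgene, which drives recombination in neural stem and progenitor cells and their progeny, so that blood, vessel and meningeal cells of the dissected cortex keep Qk. Qk encodes the RNA binding proteins of the Quaking family, which regulate pre-mRNA splicing and mRNA stability.

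In Notch signalling, a ligand on one cell binds a Notch receptor on its neighbour. The receptor is cleaved, and its intracellular domain moves to the nucleus and, with Rbpj, switches on target genes such as Hes1 and Hes5, transcriptional repressors that keep radial glia, the neural stem cells of the cortex, from becoming neurons. Numb and Numbl are endocytic adaptor proteins that bind Notch and other membrane proteins and limit Notch signalling, and in the cortex they also act in radial glial adhesion and polarity. Alternative splicing of Numb gives isoforms that differ in 2 places, the phosphotyrosine-binding (PTB) domain and the proline-rich region, and isoforms with the longer proline-rich region are known from dividing progenitors while those with the shorter one are known from neurons.

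The labels were checked first at the deleted exon 2 of Qk. The junction of exons 2 and 3 had 635 and 565 tags in the control samples and 63 and 68 in the Qk cKO samples, while the junction of exons 3 and 4 had 574 and 439 tags in the controls and 898 and 830 in Qk cKO. Relative to the exon 3 to 4 junction, the level of the deleted exon in Qk cKO was 6.40% of that in the controls (Fisher's exact test, two-sided, p = 4.80e-251). As to the labelled tissue, the 10 radial glia, 6 intermediate progenitor and 7 projection neuron markers read were all at a mean RPKM (tags scaled by exon length and library size, a level that can be compared between genes) of at least 1. So were all 7 interneuron and 8 endothelial markers, and 12743 of the 18834 genes tested. These values therefore do not tell the labelled tissue from another. The libraries held 37942046.3 to 42994832.2 tags on genes. The controls stood apart in 1 respect, control replicate 2 the most. A list of 8 markers of the diencephalon, which lies next to the cortex, summed to 14.4 and 22.3 RPKM in control replicates 1 and 2 and to 11.5 and 10.4 in Qk cKO replicates 1 and 2, with 6 of 8 called lower in Qk cKO and all 8 with tags in every sample. Their sum was highest in control replicate 2, and their part in the results below was not tested. For each of the 6 genes called, both controls were above both Qk cKO samples, which adds no support, as the genes were picked by their call in the same samples. Without control replicate 2 their log2 fold changes were smaller in size but still below 0, from -4.10 (Nr5a1) to -0.89 (Otp). For the genes and events of the pathway, the values without a library are given where leaving it out changes a call.

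The largest difference found in a member was in the splicing of Numb, and the sequences of its 2 cassette exons are shown because the isoforms of this gene are defined by them. Both lie in the coding sequence of Numb (chr12:83794034-83921934, minus strand, mm10, which is GRCm38). The 33 nt exon (chr12:83825259-83825291) is exon 3 of the transcript Numb-207, encodes the alternative part of the PTB domain and has introns of 6630 nt upstream and 13898 nt downstream. The 147 nt exon (chr12:83797197-83797343) is exon 9 of the same transcript, encodes the alternative part of the proline-rich region and has introns of 2164 nt upstream and 1042 nt downstream. Their lengths are 11 and 49 codons, so that inclusion and skipping keep the same reading frame, and GENCODE M21 holds transcripts with and without each. The lines below give the 5′ to 3′ transcript sequence in the transcript FASTA of that release, with the cassette exon in capitals and the 20 nt of the neighbouring exon on each side in lower case, followed by the same join with the exon skipped.
33 nt exon included: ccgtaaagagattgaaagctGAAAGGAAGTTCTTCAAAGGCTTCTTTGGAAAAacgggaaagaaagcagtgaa
33 nt exon skipped: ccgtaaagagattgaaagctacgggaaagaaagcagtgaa
147 nt exon included: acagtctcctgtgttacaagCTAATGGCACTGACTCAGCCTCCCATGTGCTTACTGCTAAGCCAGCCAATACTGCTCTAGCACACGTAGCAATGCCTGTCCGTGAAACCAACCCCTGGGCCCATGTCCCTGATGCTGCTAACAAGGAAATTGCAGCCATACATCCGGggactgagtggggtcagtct
147 nt exon skipped: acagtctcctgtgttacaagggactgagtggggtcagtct

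The 147 nt exon of Numb, which lengthens the proline-rich region, was included more often in Qk cKO. Its inclusion, the mean of the tags on both inclusion junctions over that mean plus the tags on the skipping junction, was 0.324 and 0.400 in the control samples and 0.631 and 0.658 in the Qk cKO samples. Both Qk cKO samples lay above both controls. The groups also did not overlap, in one direction or the other, for 38.5% of the cassette exons tested. The 95% Wilson intervals, which cover counting error only, ran from 0.194 to 0.488 and from 0.246 to 0.577 in the controls and from 0.459 to 0.774 and from 0.499 to 0.788 in Qk cKO, so that single samples of the 2 groups overlapped in these intervals. Summed over replicates, inclusion went from 0.359 to 0.645, a difference ΔI (control minus Qk cKO) of -0.287 (Fisher's exact test on isoform tags, two-sided, p = 1.85e-04, FDR = 0.00582). An event was called where this exact test gave p < 0.01 and FDR < 0.1. The exon passed, as did 9.28% of the 4600 cassette exons tested and 4.11% in the direction of higher inclusion in Qk cKO. The size of the difference was above that of 99.2% of the 11500 events tested.

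All 3 junctions of the 147 nt exon moved in the direction of inclusion. The upstream inclusion junction had 15 and 17 tags in the controls and 31 and 37 in Qk cKO. The downstream inclusion junction had 8 and 7 tags in the controls and 10 and 13 in Qk cKO. The skipping junction had 24 and 18 tags in the controls and 12 and 13 in Qk cKO. The upstream junction was covered more than the downstream one in each sample, so that the level of inclusion depends on which is read: from the upstream junction alone it was 0.432 in the controls and 0.731 in Qk cKO, and from the downstream junction alone 0.263 and 0.479. The difference between the groups had the same direction on both, and the tags on the exon, which are the inclusion tags that Fisher's test set against the skipping tags, were 25 and 27 in the controls and 46 and 53 in Qk cKO. With the mean of the inclusion junctions in their place, an alternative added after seeing the data, the exact test gave p = 0.00114 and FDR = 0.0326.

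**Figure D1:**
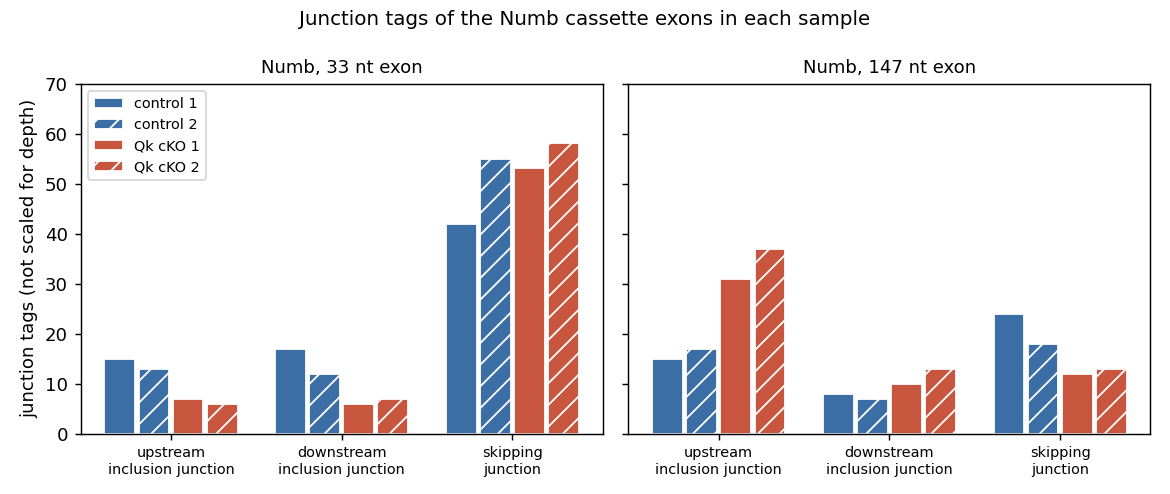
Tags on the upstream inclusion, downstream inclusion and skipping junctions of the 33 nt and 147 nt exons of Numb in each of the 4 samples (bars, not scaled for depth). For the 147 nt exon the inclusion junctions were taller and the skipping junction shorter in both Qk cKO samples (12 and 13 skipping tags against 24 and 18 in the controls), and for the 33 nt exon the inclusion junctions were shorter in Qk cKO (7 and 6 upstream tags against 15 and 13).

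Fisher's test adds up the tags of the replicates and so leaves out the variation between embryos. An edgeR quasi-likelihood test of the interaction of isoform and genotype includes it, and there the ratio of skipped to included 147 nt isoform tags differed by -1.66 (log2, Qk cKO minus control), with an unadjusted p of 0.00916 and an FDR of 0.351, which did not pass. That test called 1.02% of the cassette exons and 0.557% of the events of all types. Under Fisher's test the call also ended without control replicate 1, where ΔI was -0.245 and the FDR 0.168, and it held without each of the other 3 samples.

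The 33 nt exon of Numb, in the PTB domain, differed in the opposite direction, but the difference did not pass the test. Its inclusion was 0.276 and 0.185 in the control samples and 0.109 and 0.101 in the Qk cKO samples. Both Qk cKO samples were below both controls, which was also true, in one direction or the other, of 38.5% of the cassette exons tested. Inclusion over both replicates was 0.227 in the controls and 0.105 in Qk cKO, a ΔI of 0.122 (Fisher's exact test, two-sided, p = 0.0399, FDR = 0.244), where 5.17% of the cassette exons were called in this direction. It did not pass with the mean of the inclusion junctions in place of the tags on the exon (FDR = 0.197), and passed where the tags of both inclusion junctions were added (FDR = 0.0137), which counts inclusion on 2 junctions and skipping on 1.

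The junctions show where the difference lay. The upstream inclusion junction of the 33 nt exon had 15 and 13 tags in the controls and 7 and 6 in Qk cKO, and the downstream one 17 and 12 tags in the controls and 6 and 7 in Qk cKO. The skipping junction had 42 and 55 tags in the controls and 53.1 and 58.1 in Qk cKO, so that the groups overlapped on this junction and not on the inclusion junctions. Tags on the exon were 18 and 13 in the controls and 8 and 10 in Qk cKO. In the interaction test the log2 ratio of skipped to included tags was 0.98 higher in Qk cKO with an FDR of 0.655. In every sample most Numb mRNA lacked this exon, while the 147 nt exon was below an inclusion of 0.5 in both controls and above it in both Qk cKO samples by the mean of its junctions, though not by the downstream junction alone. The tables count the 2 exons in separate events, so how often they occur in the same mRNA was not measured.

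Another Numb event, an alternative 3′ splice site, showed 1 form alone. Exon 8 of Numb-207 can begin 134 nt further downstream (region chr12:83799524-83799657, minus strand), as in Numb-202. The longer form had 45, 34, 62.1 and 38 junction tags in control replicates 1 and 2 and Qk cKO replicates 1 and 2, and the shorter form had 0 of 179.1, which allows a share of up to 1.68%. This event did not reach the coverage of 20 tags needed for a test. Of the alternative 3′ splice sites that did, 7.85% were called.

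Numbl, the paralog that can stand in for Numb in much of the nervous system, had 1 event in the tables, a 100 nt cassette exon (chr7:27261008-27261107, plus strand) that GENCODE M21 places only in the noncoding processed transcript Numbl-202. Its inclusion was 0.256 and 0.184 in the control samples and 0.313 and 0.455 in the Qk cKO samples. The groups did not overlap, as for 38.5% of the cassette exons tested. However, the downstream inclusion junction carried nearly all of the tags on the exon's 2 inclusion junctions, with 11 and 8 in the controls and 9 and 9 in Qk cKO. The upstream junction had 0 and 1 in the controls and 1 and 1 in Qk cKO. The skipping junction had 16 and 20 tags in the controls and 11 and 6 in Qk cKO. The ΔI of -0.153 did not pass (Fisher's exact test, two-sided, p = 0.0106, FDR = 0.108), nor did the interaction test (FDR = 0.516). That exact test set the tags on the exon, 19 and 27 in the controls and 33 and 23 in Qk cKO, against the skipping tags. With the added tags of both inclusion junctions in their place its FDR was 0.348, and with the mean of these junctions 0.623.

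Of the receptors, only Notch3 had an annotated event, an alternative 3′ splice site that moves the start of 1 coding exon by 36 nt (chr17:32133693-32133728, minus strand). The extended form made up 0.0268 of the junction tags in the controls and 0.0199 in Qk cKO, with overlapping groups, and at a coverage of 8.07 tags it was not tested. The other 7 members, Notch1, Notch2, Dll1, Dll3, Jag1, Hes1 and Hes5, had no event in these tables. In all, 3 of the 5 member events were tested and 1 was called, where 7.5% of the events of all types were called.

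**Figure D2:**
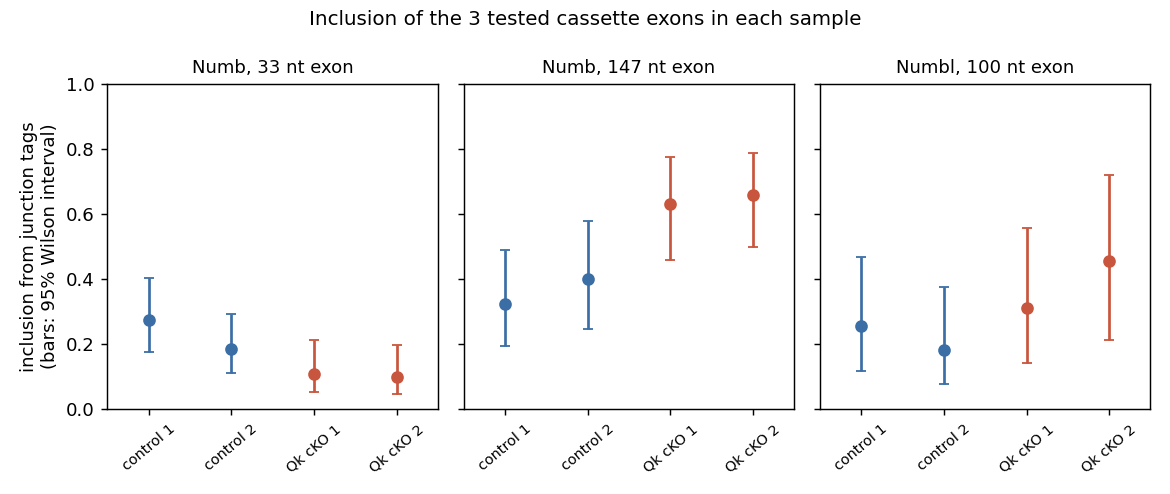
Inclusion of the 3 tested cassette exons, computed from junction tags, in each control and Qk cKO sample (points) with 95% Wilson intervals, which cover counting error only. The 147 nt exon of Numb was at 0.324 and 0.400 in the controls and at 0.631 and 0.658 in Qk cKO, while the 33 nt exon of Numb was lower in Qk cKO and the Numbl exon higher, both short of the threshold.

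The mRNA level of no member was called as changed. In the edgeR quasi-likelihood test over 18834 genes 0 of the 10 members were called at the same thresholds, where 0.584% of all genes were. Before adjustment, Notch2 and Dll3 were under 0.05, as were 8.76% of all genes. The count called was also 0 by the edgeR exact test and by DESeq2. The log2 fold changes (Qk cKO minus control) of the members ran from -0.41 to 0.16 with a median of -0.10, against -0.0025 over all genes, and were below 0 for 7 members and above 0 for 3. The RPKM of the control and Qk cKO samples did not overlap for 5 members, all lower in Qk cKO, namely Numb, Notch2, Notch3, Dll3 and Hes5. Of the genes with a mean RPKM of at least 1, 40.9% did not overlap, 22.9% with lower and 18% with higher values in Qk cKO. On tags scaled by library size and the TMM factors of the edgeR fit, Jag1 did not overlap either and was higher in Qk cKO. With 2 samples a group an exact permutation test of a single gene cannot go below p = 0.333, so the p-values rest on the spread that edgeR shares across genes.

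Of the inhibitors, Numb was at 14.2 and 14.1 RPKM in the controls and at 13.6 and 12.5 in Qk cKO, a log2 fold change of -0.10 ± 0.11 (SE; 95% interval -0.33 to 0.13, edgeR FDR = 0.855). Both Qk cKO samples were lower than both controls, but the interval runs on both sides of 0, so that the change in exon use was measured at a Numb level that was not called as different. Numbl was at 15.6 and 18.3 RPKM in the controls and 15.58 and 15.999 in Qk cKO, a log2 fold change of -0.09 with an interval of -0.27 to 0.09. Its groups overlapped, and 1 control sample was the highest of the 4.

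Among the receptors, Notch1, the main receptor of cortical progenitors, was the member of highest level and the one whose estimate lay nearest to 0. It was at 22.8 and 24.4 RPKM in the controls and 23.6 and 23.0 in Qk cKO, a log2 fold change of -0.0047 with an interval of -0.13 to 0.12. Notch2, at 12.96 and 13.99 RPKM in the controls and 11.4 and 12.3 in Qk cKO, had a log2 fold change of -0.17 ± 0.06 (SE; interval -0.29 to -0.05, edgeR FDR = 0.290). Both Qk cKO samples were below both controls for this gene, and it did not pass the FDR. Notch3, best known as the receptor of pericytes and vascular smooth muscle and also expressed in radial glia, was at 10.2 and 11.7 RPKM in the controls and 9.83 and 9.94 in Qk cKO, with a log2 fold change of -0.14 and an interval of -0.28 to 0.01. A list of 7 pericyte markers summed to 66.8 and 71.9 RPKM in the controls and 66.6 and 71.5 in Qk cKO, ranges that are nearly the same in the 2 groups. Of these markers 6 had log2 fold changes below 0 and 1 above, with a median of -0.03 and 0 called. Their part in the Notch3 level was not tested. In whole tissue, fewer cells of a type and less RNA per cell cannot be told apart, here and for each level below.

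The ligands differed among themselves. Dll1, which neuronal precursors present to their radial glial neighbours, was at 22.4 and 23.3 RPKM in the controls and 23.7 and 21.8 in Qk cKO, a log2 fold change of 0.0095 with an interval of -0.14 to 0.15, and its groups overlapped. Dll3, a divergent ligand that acts inside the cell and does not activate Notch on neighbouring cells, was at 8.37 and 7.46 RPKM in the controls and 6.19 and 5.58 in Qk cKO. That is a fold of 0.751, or a log2 fold change of -0.41 ± 0.12 (SE; interval -0.67 to -0.16, edgeR FDR = 0.214), the largest among the members in size. Both Qk cKO samples were below both controls, but the FDR did not pass, and over the fits without 1 sample it ran from 0.101 to 0.920. Jag1, a ligand of a separate family, was at 6.30 and 6.64 RPKM in the controls and 6.55 and 7.82 in Qk cKO, a log2 fold change of 0.16 with an interval of -0.06 to 0.39. In RPKM its higher mean came from Qk cKO replicate 2, and the other Qk cKO sample lay between the controls. On tags scaled by library size and the TMM factors of the edgeR fit, both Qk cKO samples lay above both controls, an order that depended on these factors.

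The 2 target genes had estimates of opposite sign, and neither was called. Hes1 was at 11.5 and 10.4 RPKM in the controls and 11.9 and 11.1 in Qk cKO, a log2 fold change of 0.08 with an interval of -0.16 to 0.33. Hes5 was at 15.6 and 15.9 RPKM in the controls and 13.9 and 13.6 in Qk cKO, a log2 fold change of -0.19 ± 0.11 (SE; interval -0.42 to 0.05, edgeR FDR = 0.710). The Hes5 groups did not overlap and the Hes1 groups did. Hes1 and Hes5 are expressed mainly in radial glia, and of the 10 radial glia markers 3 were called lower in Qk cKO, Fabp7 (log2 fold change -0.45, FDR = 0.0153), Tnc (-0.37, FDR = 0.00656) and Slc1a3 (-0.23, FDR = 0.0887). The 10 markers summed to 1699 and 1575 RPKM in the controls and 1398 and 1337 in Qk cKO with a median log2 fold change of -0.06. Without Fabp7 the other 9 summed to 709.7 and 674 RPKM in the controls and 695 and 670.4 in Qk cKO, so that the groups overlapped, and 4 of the 10 had log2 fold changes above 0, up to 0.20. Fabp7 and Tnc were also called by the exact test, DESeq2, upper-quartile scaling and the replicate block, but not with filterByExpr (FDR = 0.140 and 0.102). Without control replicate 1 their log2 fold changes were -0.38 and -0.43, and without control replicate 2 they were -0.52 and -0.31. Fits with 1 control sample called few or no genes of any kind, so calls there are not given. Slc1a3 was also called with upper-quartile scaling. It was not called by the exact test (FDR = 0.232), DESeq2 (FDR = 0.141), the replicate block (FDR = 0.128) or with filterByExpr (FDR = 0.273). With 1 sample left out its log2 fold change ran from -0.25 to -0.20. The part of these genes in the Hes5 level was not tested.

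**Figure D3:**
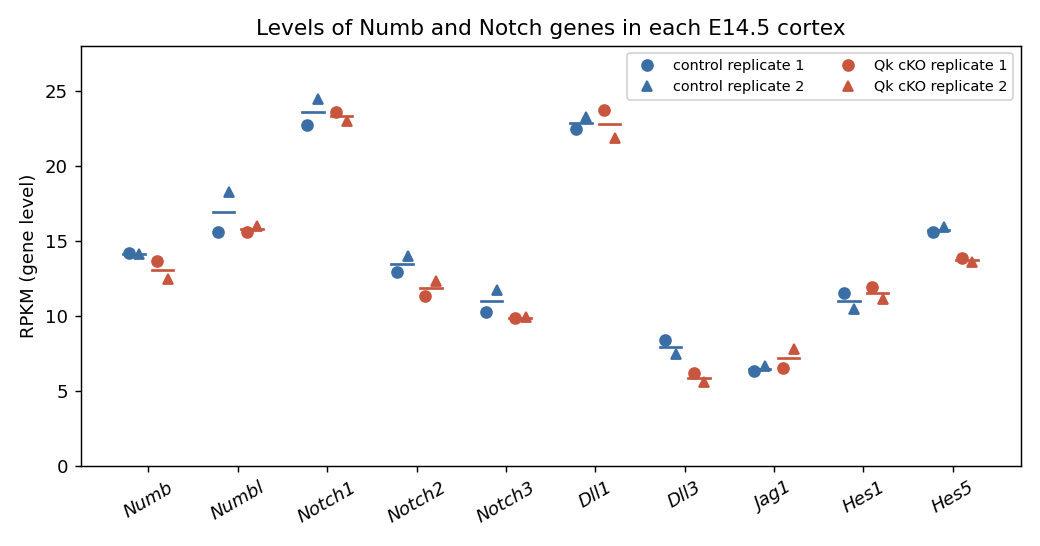
RPKM of the 10 genes in each of the 4 E14.5 cortices (circles replicate 1, triangles replicate 2, blue control, red Qk cKO), with a line at the mean of each group. The samples of Dll3 and Hes5 separated by group, at 8.37 and 7.46 against 6.19 and 5.58 and at 15.6 and 15.9 against 13.9 and 13.6, while those of Notch1, Dll1, Numbl, Jag1 and Hes1 overlapped.

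By level the members formed 3 tiers. Notch1 and Dll1 had the highest mean RPKM over the 4 samples, 23.5 and 22.8, and their ranges overlapped. Numbl (16.4), Hes5 (14.7), Numb (13.6), Notch2 (12.7), Hes1 (11.2) and Notch3 (10.4) followed, each with a range that overlapped that of the next. Dll3 (6.90) and Jag1 (6.83) overlapped each other and lay below the rest. Every member was well expressed, from the 57.4th to the 81.8th percentile of the genes tested, and the 10 were measured with 496 to 9892 tags a sample, so that depth did not keep any of them from being tested.

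The rest of the pathway was read from a list of 74 other genes, of which 73 were in the tables and tested. Of these 0 were called higher and 1 was called lower, with 5 at an unadjusted p under 0.05, where 0.207% of all genes were called higher and 0.377% lower. Their median log2 fold change was -0.03, with 30 above 0 and 43 below. The gene called was Dlk1, a noncanonical ligand, at 6.84 and 12.1 RPKM in the controls and 5.83 and 5.72 in Qk cKO (log2 fold change -0.70 ± 0.16, SE, edgeR FDR = 0.0887). Control replicate 2, in which the diencephalic markers were highest, was also the sample highest in Dlk1. Without it the log2 fold change of Dlk1 was -0.24. Dlk1 was not called by the exact test (FDR = 0.208) or by DESeq2 (FDR = 0.642).

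The 3 next genes by p were also lower in Qk cKO in both samples and did not pass. Dlk2, the paralog of Dlk1, was at 3.44 and 3.73 RPKM in the controls and 2.43 and 2.13 in Qk cKO (log2 fold change -0.64, FDR = 0.160), and was called without Qk cKO replicate 1 (FDR = 0.0575). Nrarp, a Notch target that feeds back on the Notch complex, was at 11.4 and 11.4 RPKM in the controls and 8.77 and 9.35 in Qk cKO (log2 fold change -0.32, FDR = 0.320). Hes6, a Hes family gene that acts against Hes1 and promotes neuronal differentiation, was at 38.3 and 36.6 RPKM in the controls and 33.4 and 29.6 in Qk cKO (log2 fold change -0.24, FDR = 0.414).

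The remaining roles held no call. The 8 target genes found had a median log2 fold change of -0.16, with 6 below 0 and 2 above, and a range that ended at 2.00 with Hes3, which had 0 and 1 tags in the controls and 4 and 1 in Qk cKO. The 10 protease genes, which include the subunits of γ-secretase that release the Notch intracellular domain, had a median of 0.02, the 6 nuclear effectors, Rbpj among them, -0.0083, and the 11 corepressors 0.03. The 5 glycosyltransferases that modify the receptor had a median of -0.12, the 5 ligand endocytosis genes -0.09 and the 8 genes of receptor turnover 0.02. The 14 genes whose products bind, phosphorylate or act with Numb had a median of -0.02 and ran from -0.12 to 0.10.

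**Figure D4:**
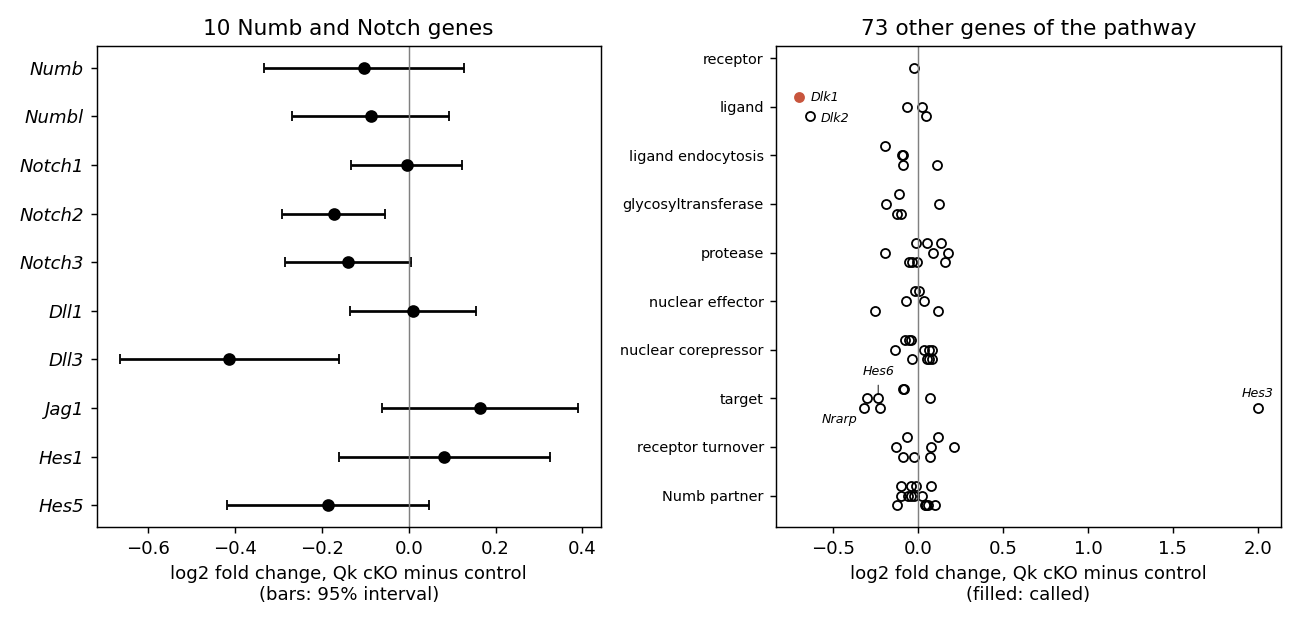
Log2 fold change (Qk cKO minus control) of the 10 genes with 95% intervals, left, and of the 73 other pathway genes by role, right, where the filled point is the gene called. The intervals of Notch2 and Dll3 do not reach 0 although neither passed the FDR, and Dlk1 is the filled point at -0.70, while Hes3 at 2.00 rests on at most 4 tags a sample.

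Splicing was also read across the pathway list. Of its genes 32 had 98 tested events, and 1 event was called where 7.5% of all events were, the retention of an intron of Hey1, a Notch target gene of the Hes-related family. The share of retained intron was 0.0111 and 0.0161 in the controls and 0.0371 and 0.0857 in Qk cKO, a ΔI of -0.0446 (Fisher's exact test, two-sided, p = 0.00351, FDR = 0.0863). Both Qk cKO samples were above both controls, at levels where the intron was spliced out of most transcripts, and the interaction test did not pass (FDR = 0.683). By the edgeR interaction test 0 of the 98 events were called, with 7 under 0.05 before adjustment, as were 7.17% of all events. Most of these 7 were overlapping events of Tle1 that share tags, so they are not independent. Events of Hes6 and of Pard6a also repeat the same values. No called event in the list had a ΔI of 0.1 or more in size. The 147 nt exon of Numb was therefore the sole called event of that size among the members and the pathway list.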

How the data were processed

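RNA of the dissected cortices was made into poly-A selected libraries and sequenced as paired ends. The authors mapped the reads with the splicing aligner OLego (build mm10) and counted genes and splicing events with Quantas, in versions not given in the sources used here. The deposited tables give, for each sample, estimated counts (tags, some fractional) per gene, isoform, exon and junction, and the authors' RPKM per gene.

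Tags were rounded and tested with edgeR 4.0.16 in R 4.3.3 (quasi-likelihood, TMM), leaving out genes with 0 tags in all samples. Genes were called at p < 0.01 and Benjamini-Hochberg FDR < 0.1 over all genes, as an exact permutation test cannot pass here. Splicing events whose smallest sum of junction tags over an isoform or a group reached 20 were tested with Fisher's exact test on isoform tags summed over replicates, with FDR within each event type. DESeq2 1.42.0 and other settings were alternatives. The gene and splicing tests were also run on data simulated from the levels measured here. Exon positions and sequences came from GENCODE M21.

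The members, the gene lists and the marker lists were chosen with earlier results of these data known. Named are the 10 members, the pathway and marker genes called, the 3 pathway genes next by p and, after its value was seen, Hes3. The pathway gene Nepro and 3 of the markers were not matched by symbol. The study describes the embryos as independent littermates, but no label says which samples shared a litter, and its methods state 3 replicates where the labels give 2.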

Additional observations from a re-analysis of the deposited data

How the results depend on the processing

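No member gene was called under any of the 9 other settings (exact test, DESeq2, upper-quartile scaling, filterByExpr, replicate block, and each sample left out). DESeq2 gave Dll3 no FDR and so could not call it. The same held for the 6 diencephalic markers called, so the DESeq2 count of marker genes below does not judge them. Of the radial glia markers called, DESeq2 called Fabp7 and Tnc and not Slc1a3. With 1 sample left out the log2 fold changes of Numbl (-0.196 to 0.025), Notch1 (-0.054 to 0.043) and Dll1 (-0.066 to 0.078) took both signs. Of the pathway list 0 genes were called by the exact test, DESeq2 or filterByExpr, and 0 to 2 with 1 sample left out. The 9 marker genes called became 2 with DESeq2, 1 with filterByExpr and 0 to 15 with 1 sample left out. The 1 member event called became 2 with junction tags alone, where the tags of both inclusion junctions are added and 1 included mRNA can count on each, stayed 1 with the mean of these junctions (added after seeing the data), and was 0 by the interaction test and 0 (without control replicate 1) to 1 with 1 sample left out. The ΔI of the 147 nt exon of Numb ran from -0.321 to -0.245 with 1 sample left out, and it is -0.287 in the interaction test, which did not call it. Over all genes 110 were called, against 57 by the exact test, 81 by DESeq2, 11 with filterByExpr, 192 with the replicate block, and 11, 0, 428 and 68 without control replicate 1, control replicate 2, Qk cKO replicate 1 and Qk cKO replicate 2.

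The deviations of same-numbered samples from their group means correlated at 0.384 over all 13326 genes read and at -0.0722 over the 12825 autosomal ones. Over 11496 events, on any chromosome, the correlation was -0.0140. As the autosomal and event values were near 0, the numbers were not taken as pairs. With the replicate block the log2 fold change of Dll3 was -0.41 (FDR = 0.115), and the stratified (Cochran-Mantel-Haenszel) p of the 147 nt exon was 2.30e-04. The coverage of 67 tags limits the precision of its inclusion.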

Other observations

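The other cell types of the dissected cortex were read from marker lists. The 6 intermediate progenitor markers summed to 132 and 127 RPKM in the controls and 122 and 124 in Qk cKO, the 7 projection neuron markers to 1111 and 1144 against 1096 and 1044, and the 7 interneuron markers to 156 and 164 against 166 and 166, with 0 called in each list. The 8 endothelial markers summed to 86.6 and 81.9 RPKM in the controls and 79.3 and 91.1 in Qk cKO, the 6 meningeal markers to 127 and 117 against 116 and 157, the 6 erythroid markers found to 453 and 431 against 588 and 440, and the 7 microglia markers to 33.2 and 36.6 against 31.3 and 32.7, again with 0 called. Hence the calls among markers were the 3 of radial glia and the 6 of the diencephalon, Nkx2-2, Six6, Pomc, Sox14, Nr5a1 and Otp.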
